A study of Mus musculus with 56 samples.

Results

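The cytochrome P450 genes of families 1 to 3 were followed in the livers of 56 male C57BL/6J mice, 8 in each of 7 groups. Members were the rows of the count table whose symbol begins with Cyp1, Cyp2 or Cyp3, a subfamily letter and a number. Pseudogenes, all Cyp2b genes, Cyp1a2 and Cyp2e1 were left out. Of 61 matching symbols among 21935 rows, 53 were members, and 41 of these had 5 or more reads in 3 or more mice and were tested together with all 14105 genes that passed the same filter.

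Mice were fed for 36 weeks before dosing and were then dosed daily under the skin for 8 weeks. They were 5 to 6 weeks old on arrival. One group ate chow and received vehicle. The other 6 groups ate AMLN diet, a feed high in fat, cholesterol and fructose that brings on obesity and steatohepatitis (DIO-MASH), and were included only if a liver biopsy showed steatosis and fibrosis. These received vehicle, zalfermin at 0.05 mg/kg (low dose) or 0.2 mg/kg (high dose), semaglutide at 0.003 mg/kg (low dose) or 0.12 mg/kg (high dose), or both agents together (combination). Zalfermin acts for long as an analog of FGF21, a liver hormone. Semaglutide activates the GLP-1 receptor. The sample labels give no dose for the combination; the study's methods name both low doses, and the series' design text names both high doses. No group carried a transgene or a deletion, and chow-fed mice received neither the AMLN diet nor an agent, so that diet and liver disease cannot be told apart in them. The study left out 1 low-dose semaglutide mouse that the labels do not mark, and all 56 mice were used here.

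P450 enzymes of these families sit in the membrane of the endoplasmic reticulum and use heme, oxygen and electrons from P450 oxidoreductase to hydroxylate or epoxidise drugs, steroids, fatty acids and bile acids. Most are made in hepatocytes under nuclear receptors and liver-enriched transcription factors. In rodents many differ between the sexes, and inflammation lowers many of them.

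Libraries held 5228187 to 20885786 reads on genes, with a median of 12206788. Levels are given as CPM, which are counts scaled to a common library size with edgeR's normalization, and differences as log2 fold changes ± standard error (SE) from one quasi-likelihood fit of edgeR to all 7 groups, with p-values adjusted over 14105 genes by the Benjamini-Hochberg method and a threshold of 0.05. Hepatocyte markers were plentiful in every mouse, summing to 63778 to 247260 CPM over 7 listed genes. In bulk liver RNA, fewer hepatocytes and less RNA per hepatocyte cannot be told apart. Chow mouse 8 stood apart. It held 948 reads of Cyp2c65 and 465 reads of Cyp2c66, 2 members that did not pass the filter, against at most 3 and 0 reads in every other mouse. Of 9 genes of intestinal epithelium listed after this was seen, 8 had more reads in chow mouse 8 than in any other mouse; Krt20, a keratin of intestinal epithelium, had 2102 reads against at most 9, and Vil1, the brush border protein villin, 2214 against at most 35. Results for chow-fed mice are therefore given with and without this mouse where they differ.

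The members fell into 14 subfamilies. The largest were Cyp2c with 15 members on chromosome 19, Cyp3a with 9 on chromosome 5, and Cyp2d and Cyp2j with 8 each on chromosomes 15 and 4. Averaged over the groups, 19 tested members lay at 100 CPM or more, 15 between 1 and 100 CPM, and 7 under 1 CPM. Per kilobase of annotated exon, Cyp3a11 was highest in 6 of 7 groups (1342 CPM per kb in chow-fed mice and 805 in DIO-MASH vehicle mice). In high-dose zalfermin mice it stood at 551 CPM per kb, below Cyp2d26 at 576 CPM per kb. Reads on all 53 members made up 1.71% ± 0.167 (SD, n = 8) of reads in chow-fed mice and 1.11% ± 0.116 in DIO-MASH vehicle mice. The 5 treated groups had means from 1.14% (high-dose semaglutide) to 1.28% (combination), with ranges that overlapped DIO-MASH vehicle. The 12 members that did not pass were Cyp2c65, Cyp2c66, Cyp2d34, Cyp2j7, Cyp2j8, Cyp2j11, Cyp2j12, Cyp2j13, Cyp2t4, Cyp2w1, Cyp3a41a and Cyp3a41b. Apart from Cyp2c65 and Cyp2c66, none of these had more than 5 reads in any mouse.

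The first comparison asked how the diseased liver differed from the lean one. Chow-fed mice had higher levels than DIO-MASH vehicle mice of 30 of 41 members and lower levels of 5, where 26.5% of all genes tested were higher and 28.9% lower. The median log2 fold change was 1.0 over the members and -0.01 over all genes. Without chow mouse 8, 28 members were higher and 7 lower. By subfamily, with all mice, 11 of 13 Cyp2c members were higher and none lower (median log2 fold change 1.80). Among Cyp2d members 5 of 7 were higher and 1 lower (0.96), and among Cyp3a members 5 of 7 and 1 (1.0). Without chow mouse 8, Cyp2c69 was not called and Cyp2c38 was called lower.

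The heat map of log2 fold changes shows how the members' differences in the treated groups relate to those in chow-fed mice, all of them measured against the same 8 DIO-MASH vehicle mice.

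**Figure D1:**
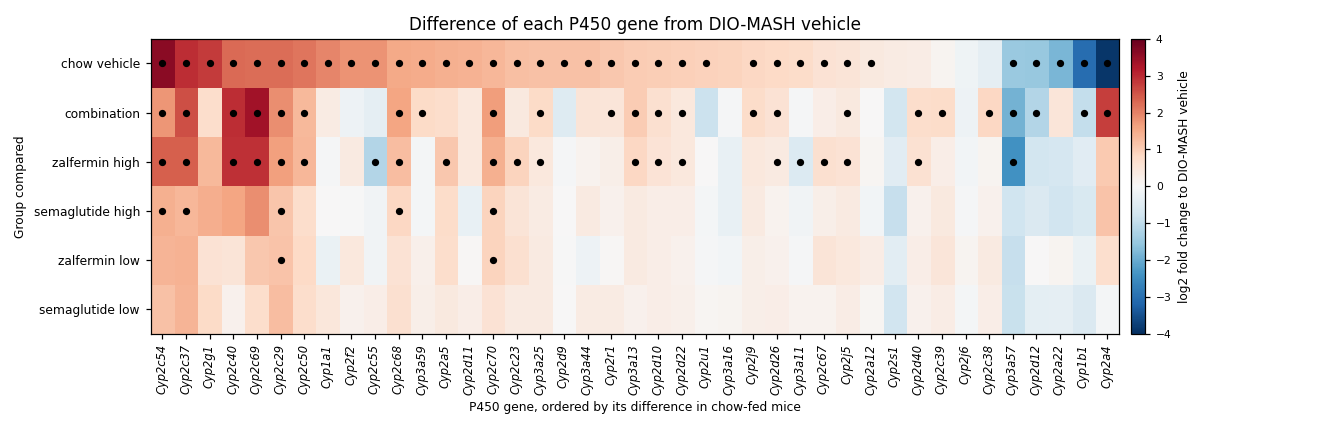
Log2 fold change of each of 41 P450 genes (columns) against DIO-MASH vehicle in each of 6 groups (rows), with a dot where the adjusted p of edgeR's quasi-likelihood test was under 0.05. Chow-fed mice had 35 dots, the combination 24, high-dose zalfermin 21, high-dose semaglutide 5, low-dose zalfermin 2 and low-dose semaglutide 0, and Cyp2a4, at the right end, was blue in chow-fed mice and red in the combination.

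The treated groups were each compared with DIO-MASH vehicle to ask which agents and doses moved these genes. In the combination, 21 members rose and 3 fell, where 10% of all genes tested rose and 10.9% fell. High-dose zalfermin raised 18 members and lowered 3, where 8.54% of all genes rose and 8.68% fell. High-dose semaglutide raised 5 members and lowered none, where 1.43% of all genes rose and 1% fell. Low-dose zalfermin raised 2 members and lowered none, where 0.418% of all genes rose and 0.0496% fell. Low-dose semaglutide moved 0 members by edgeR's quasi-likelihood test, as it moved 0% of all genes in either direction. By that test 13 of 41 members and 1222 of 14105 genes had an unadjusted p under 0.05. DESeq2's Wald test called 4 members. Its calls over all genes are not given here, so these are not read as a result about the members. The study, which used DESeq2 without 1 mouse of this group, reported 0 genes. Of the 13 Cyp2c members, 10 rose in the combination and none fell, and 10 rose and 1 fell in high-dose zalfermin. Median log2 fold changes over the members were 0.51 in the combination, 0.41 in high-dose zalfermin, 0.23 in high-dose semaglutide, 0.28 in low-dose zalfermin and 0.25 in low-dose semaglutide, where the medians over all genes lay between -0.03 and 0.00. Of the 41 members, 14 were higher than DIO-MASH vehicle in chow-fed mice, in the combination and in high-dose zalfermin, and 8 were higher in chow-fed mice with no call in these 2 treated groups. These comparisons share their DIO-MASH vehicle mice, so such counts describe the calls side by side.

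**Figure D2:**
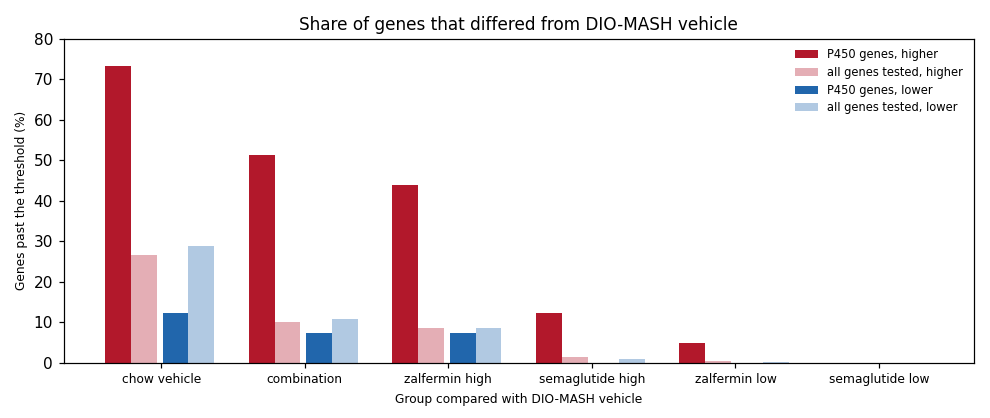
Percent of genes that were higher (red) or lower (blue) than DIO-MASH vehicle in each of 6 groups, with the 41 P450 genes in full colour and all 14105 genes tested in pale colour. The P450 genes were higher in 73.2% of cases in chow-fed mice and 51.2% in the combination, against 26.5% and 10% of all genes.

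Markers of liver cell types, listed from general knowledge, moved in the same comparisons. All 7 hepatocyte markers tested were higher in chow-fed mice (median log2 fold change 1.18), in the combination (0.67) and in high-dose zalfermin (0.54), and 2 of 7 in high-dose semaglutide. Of 7 hepatic stellate cell markers, 5 were lower in chow-fed mice, 5 in the combination, 2 in high-dose zalfermin and 2 in high-dose semaglutide. Their summed level ranged from 783 to 1361 CPM in DIO-MASH vehicle mice, from 289 to 627 CPM in the combination and from 127 to 238 CPM in chow-fed mice. Of 9 macrophage markers, 8 were lower in chow-fed mice, 1 was higher in the combination, and 1 was higher and 1 lower in high-dose zalfermin. All 6 T and B cell markers and 3 of 5 cholangiocyte markers were lower in chow-fed mice. There their summed levels had medians of 3.6 and 47.4 CPM and maxima of 11.7 and 277 CPM, both in chow mouse 8. All marker calls given here for chow-fed mice included that mouse. In the combination 1 cholangiocyte marker was lower, and in high-dose semaglutide 3 T and B cell markers were. Of 6 sinusoidal endothelial markers, chow-fed mice had 1 higher and 3 lower, and 1 was lower in the combination. Of 5 red blood cell genes, 1 was higher in chow-fed mice and 1 lower in the combination. All 7 listed genes of periportal hepatocytes other than P450s were higher in chow-fed mice and in high-dose zalfermin, and 4 in the combination, while of 7 pericentral genes chow-fed mice had 3 higher and 1 lower, 3 were higher in high-dose zalfermin and 1 in each of the combination, low-dose zalfermin and high-dose semaglutide. Low-dose zalfermin raised 2 of the periportal genes and high-dose semaglutide 1. Of 7 acute phase genes, 4 were higher in chow-fed mice, and 1 was higher in each of the combination and high-dose zalfermin. The summed level in chow-fed mice ran from 3189 through a median of 4247 to 50040 CPM, with the highest value in mouse 2. In DIO-MASH vehicle mice it ran from 4639 through 6658 to 7425.5 CPM, so the chow-fed median was the lower one. The part of these markers in the P450 differences was not tested.

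Cyp2c29, Cyp2c37, Cyp2c50 and Cyp2c54 encode epoxygenases of arachidonic and linoleic acid and are induced through the nuclear receptors CAR and PXR. In GRCm38 (GENCODE vM21) they lie in one cluster, Cyp2c29 at chr19:39269405-39330713, Cyp2c37 at chr19:39992424-40012243 and Cyp2c54 at chr19:40037940-40073827. Cyp2c54 ran from 13.9 through a median of 29.3 to 88.9 CPM in DIO-MASH vehicle mice and from 246 through 428 to 582 CPM in chow-fed mice, so that the groups did not overlap. Its log2 fold change was 3.61 ± 0.40 (adjusted p = 1.03e-10), the largest rise among members. Cyp2c37 ran from 26.4 through 50.8 to 227 CPM in DIO-MASH vehicle mice and from 372 through 496 to 818 CPM in chow-fed mice (2.94 ± 0.37). Cyp2c29 ran from 186 through 241 to 654 CPM in DIO-MASH vehicle mice and from 648 through 1427 to 2309 CPM in chow-fed mice (2.24 ± 0.29), where the lowest chow-fed mouse lay just under the highest DIO-MASH mouse.

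In the combination, Cyp2c37 ran from 253 through 392 to 935 CPM, above every DIO-MASH vehicle mouse. Its log2 fold change was 2.58 ± 0.37 (adjusted p = 5.97e-07), and in high-dose zalfermin, at 220 to 587 CPM, it was 2.38 ± 0.36. Cyp2c29 ran from 861 through 1082 to 1437 CPM in the combination, again above all DIO-MASH vehicle mice, with a log2 fold change of 1.86 ± 0.28, and was 1.64 ± 0.28 in high-dose zalfermin. Cyp2c54 reached 59.3 to 234 CPM in the combination (1.78 ± 0.37) and 132 to 294 CPM in high-dose zalfermin (2.38 ± 0.38), where all 8 mice lay above the DIO-MASH vehicle group. In high-dose semaglutide the rises were 1.42 ± 0.37 for Cyp2c54, 1.34 ± 0.35 for Cyp2c37 and 1.11 ± 0.28 for Cyp2c29, with adjusted p-values of 0.0257, 0.0275 and 0.0217; each lost its call when some single mice were left out (largest adjusted p 0.15, 0.109 and 0.0813). In every one of these genes DIO-MASH vehicle mouse 1 was the highest of its group. Without it the log2 fold change of Cyp2c37 was 1.9 in low-dose zalfermin (adjusted p = 0.00375, against 0.0522 with all mice). In low-dose semaglutide the fold change was then 1.87 (0.0148, against 0.27). Leaving out the highest vehicle mouse raises a fold change by construction, so these values are not read as calls.

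Cyp2c70 encodes the enzyme that turns chenodeoxycholic acid into muricholic acids, the bile acids that set mice apart from humans, and lies at the end of the same cluster (chr19:40153353-40187333). It ran from 134 through 227 to 260 CPM in DIO-MASH vehicle mice, from 461 through 637 to 917 CPM in the combination and from 478 through 535 to 845 CPM in high-dose zalfermin. All 16 mice of both treated groups lay above the DIO-MASH vehicle group. The log2 fold change was 1.68 ± 0.22 (adjusted p = 1.51e-07) in the combination, 1.43 ± 0.22 in high-dose zalfermin, 0.89 ± 0.22 in high-dose semaglutide and 1.32 ± 0.22 in chow-fed mice. In low-dose zalfermin, at 277 to 683 CPM, Cyp2c70 rose by 0.90 ± 0.22 with an adjusted p of 0.0411, and Cyp2c29, at 373 to 1253 CPM, by 1.15 ± 0.28 with the same adjusted p. These were the 2 members called in that group. No mouse of low-dose zalfermin had less Cyp2c70 than the highest DIO-MASH vehicle mouse, but leaving out any of 12 mice raised the adjusted p of Cyp2c70 above 0.05, up to 0.213, and leaving out any of 11 mice did so for Cyp2c29, up to 0.198.

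**Figure D3:**
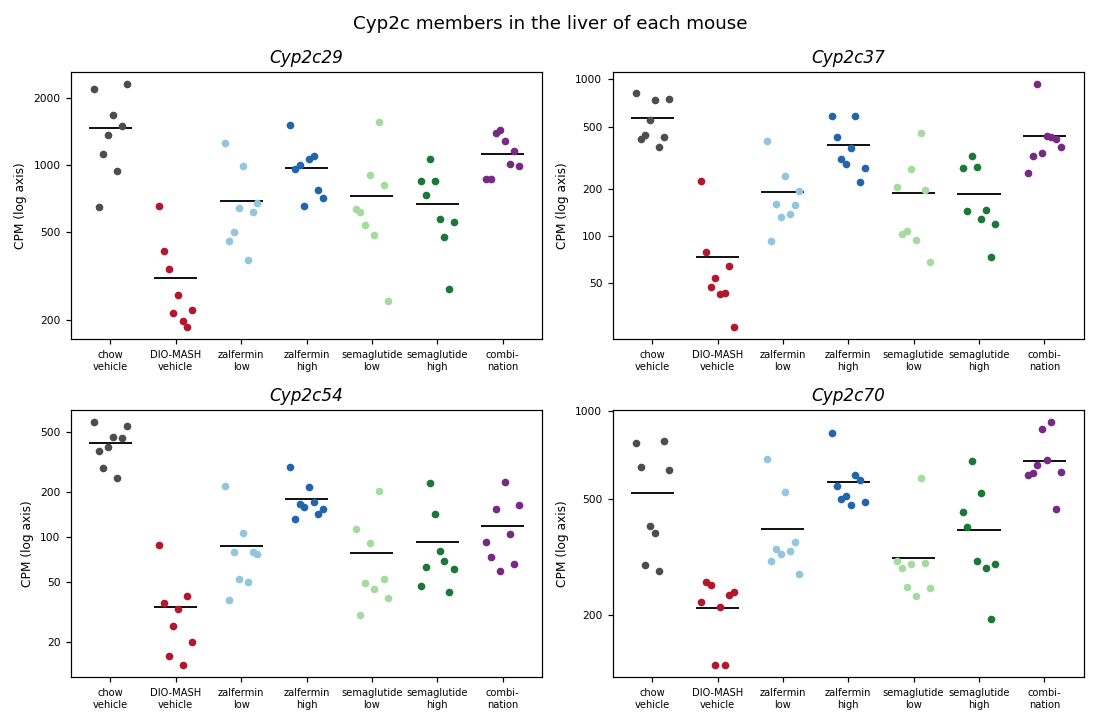
CPM on a log axis of 4 Cyp2c genes in each mouse (points) by group, with the group mean as a line (n = 8 per group). For Cyp2c37 and Cyp2c70 all 8 combination mice lay above the highest DIO-MASH vehicle mouse, and chow-fed mice had 246 to 582 CPM of Cyp2c54 against 13.9 to 88.9 in DIO-MASH vehicle mice.

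Sample numbers in the labels fall into 4 runs, and what the runs stand for is not stated. Within each of the 3 runs that held mice of every group, the combination minus DIO-MASH vehicle difference in mean log2(CPM + 0.5) was 1.09, 2.10 and 2.48 for Cyp2c29, against 1.96 over all mice. For Cyp2c37 it was 1.58, 3.16 and 2.87 against 2.77. In high-dose zalfermin the Cyp2c70 difference was 1.36, 1.45 and 1.58 against 1.45. Cyp2c54 varied more between runs, with a combination difference of 0.63, 2.69 and 2.10 against 1.86. For Cyp2c40 it was 1.65, 1.34 and 0.77 against 1.65. These differences were above 0 in all 3 runs, each of which held 1 to 4 mice of a group.

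Cyp2c68, a member of the same cluster, ran from 37.8 to 78.4 CPM in DIO-MASH vehicle mice and from 129 to 230 CPM in the combination (log2 fold change 1.58 ± 0.19), and also rose in high-dose zalfermin (1.25 ± 0.19) and high-dose semaglutide (0.83 ± 0.19). Cyp2c38 was not called in chow-fed mice (-0.35 ± 0.16, adjusted p = 0.0649, and 0.0129 without chow mouse 8) but rose in the combination by 0.81 ± 0.16, from 48.1 to 132 CPM in DIO-MASH vehicle mice to 119.9 to 219 CPM. Cyp2c23 and Cyp2c67 rose in high-dose zalfermin (0.90 ± 0.19 and 0.64 ± 0.15) and were 0.40 ± 0.19 and 0.27 ± 0.15 in the combination, with adjusted p-values of 0.12 and 0.17. Cyp2c55, also a CAR and PXR target, went the other way in high-dose zalfermin. It ran from 0.736 through 2.16 to 3.47 CPM there and from 2.46 through 5.0 to 5.79 CPM in DIO-MASH vehicle mice, a fall of -1.17 ± 0.40 (adjusted p = 0.0315) that lost its call without any of 6 mice (up to 0.0626). In chow-fed mice it ran from 4.21 to 63.0 CPM with mouse 8 the highest, and its rise of 1.80 ± 0.36 became 1.10 without that mouse (adjusted p = 0.0018).

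Of all genes tested, 26.5% were higher in chow-fed mice, 10% in the combination, 1.43% in high-dose semaglutide and 0.418% in low-dose zalfermin. In high-dose zalfermin 8.54% rose and 8.68% fell. Beside these shares, all 6 listed P450s inducible through PXR and CAR were higher in chow-fed mice, and 4 rose in the combination. In high-dose zalfermin 4 of the 6 rose and 2 fell, while 3 rose in high-dose semaglutide and 1 in low-dose zalfermin. The other faller was Cyp3a11, the main P450 of subfamily 3A in mouse liver and a PXR target that clears drugs and bile acids (chr5:145854426-145879964). Cyp3a11 ran from 3395 through 4145 to 5034 CPM in DIO-MASH vehicle mice, from 4182 through 7182 to 8244 CPM in chow-fed mice and from 1073 through 3043 to 3696 CPM in high-dose zalfermin. It was higher in chow-fed mice by 0.74 ± 0.16 (adjusted p = 0.00017) and lower in high-dose zalfermin by a log2 fold change of -0.55 ± 0.16 (adjusted p = 0.01495). The ranges of high-dose zalfermin and DIO-MASH vehicle overlapped, and chow-fed mice lay above every high-dose zalfermin mouse. It took 38.7% to 48.1% of the members' reads in DIO-MASH vehicle mice and 9.56% to 27.2% in high-dose zalfermin. This share also falls where other members rise, and it was 23.2% to 35.8% in the combination. In the combination, at 2776 to 5231 CPM, the log2 fold change of Cyp3a11 was -0.05 ± 0.16 (adjusted p = 0.856). The combination minus high-dose zalfermin difference was 0.50 ± 0.16 with an adjusted p of 0.157, so the 2 groups were not shown to differ.

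Letters upstream of the RefSeq starts of Cyp2c29 and Cyp3a11 are shown. Both genes are listed as CAR and PXR targets and were called in opposite directions in high-dose zalfermin. The sequences are RefSeq's for GRCm38.p6, cut where an annotated exon begins, with the half-site AGGTCA of nuclear receptors in capitals. Cyp2c29 is given from position -250 to -12 (chr19:39286835-39287073, plus strand) and Cyp3a11 from -250 to -111 (chr5:145879965-145880104, minus strand). The Cyp2c29 stretch lies inside the GENCODE span of that gene (chr19:39269405-39330713), since the 2 annotations place its start differently.
Cyp2c29: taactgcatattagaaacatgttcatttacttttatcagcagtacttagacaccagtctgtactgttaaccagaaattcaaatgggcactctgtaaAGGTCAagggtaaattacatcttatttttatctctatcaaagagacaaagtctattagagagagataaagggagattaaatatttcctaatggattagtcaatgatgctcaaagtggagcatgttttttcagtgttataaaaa
Cyp3a11: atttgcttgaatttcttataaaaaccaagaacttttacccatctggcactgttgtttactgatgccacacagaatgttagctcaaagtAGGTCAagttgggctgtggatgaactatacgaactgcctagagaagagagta
The half-site lay at -154 to -149 in Cyp2c29 and at -162 to -157 in Cyp3a11. Searched on both strands in the 250 bases before the start, AGGTCA was found in 12 of 48 promoter entries of 45 members. Over all 32851 promoters it was found in 14%. Of the other motifs searched in this way, GTTAAT of the hepatocyte factor HNF1 was found in 12.5% of member entries against 6.43% of all. The aryl hydrocarbon receptor core GCGTG was found in 16.7% against 28.2%, and the motif of the transcription factor STAT5 in 4.17% against 7.02%. A match of these letters is a description and no evidence of binding.

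The other Cyp3a members were called in different directions in high-dose zalfermin, where Cyp3a13 and Cyp3a25 rose and Cyp3a57 fell. Cyp3a13 ran from 109 to 173 CPM in DIO-MASH vehicle mice, from 193 to 527 CPM in the combination and from 164 to 287 CPM in high-dose zalfermin, and rose by 1.0 ± 0.19 and 0.82 ± 0.19. Cyp3a25 ran from 211 to 287 CPM in DIO-MASH vehicle mice and from 320.1 to 556 CPM in the combination (0.77 ± 0.10), without overlap, and was 469.6 to 736 CPM in chow-fed mice (1.17 ± 0.10). Cyp3a59 rose in the combination (0.76 ± 0.20) and was -0.09 ± 0.21 in high-dose zalfermin. Cyp3a57, a weakly expressed member at 0.16 to 1.13 CPM in DIO-MASH vehicle mice, fell in chow-fed mice, in the combination and in high-dose zalfermin by -1.47 ± 0.56, -1.90 ± 0.56 and -2.43 ± 0.61. Its median was 0 CPM in high-dose zalfermin, where the highest mouse had 0.419 CPM, so that the size of this change rests on few reads.

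Cyp2a4 and Cyp2a5 lie on chromosome 7 (chr7:26307169-26315088 and chr7:26835305-26843548, plus strand) with nearly the same sequence. An annotated antisense gene, Gm42375, overlaps Cyp2a4, and their reads cannot be told apart if strand was not used in counting. Cyp2a4 encodes a testosterone hydroxylase that is higher in female than in male mouse liver, and Cyp2a5 an enzyme known for hydroxylating coumarin and nicotine. Their coding sequences, each of 1485 bases, differed at 23 bases (98.45% identity), with the longest identical run at 216 bases. Of the 75-base windows of Cyp2a4 transcripts, 20.97% were also found in Cyp2a5 transcripts, and of those of Cyp2a5 15.8% in Cyp2a4, so that some reads of 75 bases cannot be assigned to either gene alone. The 75 coding bases with the most differences are shown because reads there tell the genes apart. They cover coding positions 595 to 669, counted from the A of the start codon, across an intron (chr7:26309029-26310720 in Cyp2a4 and chr7:26837192-26838882 in Cyp2a5, plus strand, GENCODE vM21 on GRCm38), with the 5 differing bases in capitals.
Cyp2a4: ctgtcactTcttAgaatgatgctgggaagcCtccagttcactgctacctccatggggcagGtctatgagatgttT
Cyp2a5: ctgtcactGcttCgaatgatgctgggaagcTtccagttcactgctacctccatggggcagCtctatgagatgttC
The RefSeq bases before the start of each gene were also alike. The stretches below run from -250 to -24 in Cyp2a4 (chr7:26306942-26307168, plus strand) and from -250 to -35 in Cyp2a5 (chr7:26835089-26835304, plus strand), where annotated exons begin. Capitals mark the bases that differ and the first base of Cyp2a4, which has no partner.
Cyp2a4: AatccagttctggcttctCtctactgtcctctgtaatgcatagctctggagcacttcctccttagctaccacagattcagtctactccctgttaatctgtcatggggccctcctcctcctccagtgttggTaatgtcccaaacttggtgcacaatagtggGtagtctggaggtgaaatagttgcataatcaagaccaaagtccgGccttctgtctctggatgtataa
Cyp2a5: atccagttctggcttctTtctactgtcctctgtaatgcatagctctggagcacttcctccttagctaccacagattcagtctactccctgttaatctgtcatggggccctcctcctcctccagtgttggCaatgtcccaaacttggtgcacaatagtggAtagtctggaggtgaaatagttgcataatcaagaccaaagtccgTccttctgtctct
Where the 250 bases before the starts aligned, they differed at 4. Both held GTTAAT, a half-site of the hepatocyte factor HNF1, at -160 to -155 and -161 to -156; searched on both strands, these letters were found in 6 of 48 member promoters and in 6.43% of all promoters.

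Despite this likeness the genes had unlike levels. Cyp2a4 ran from 0.0901 through 0.677 to 1.35 CPM in chow-fed mice and from 1.64 through 6.54 to 25.9 CPM in DIO-MASH vehicle mice, and every chow-fed mouse lay below every DIO-MASH vehicle mouse. The log2 fold change in chow-fed mice was -3.89 ± 0.73 (adjusted p = 1.21e-05). In the combination Cyp2a4 ran from 16.4 through 90.8 to 127 CPM, further from chow-fed mice, with a log2 fold change of 2.76 ± 0.52 (adjusted p = 9.1e-05), and 6 of the 8 mice lay above the highest DIO-MASH vehicle mouse. It was 1.06 ± 0.51 in high-dose zalfermin and 1.16 ± 0.51 in high-dose semaglutide, with adjusted p-values of 0.15 and 0.225, at 9.66 to 66.6 and 2.9 to 67.7 CPM. The combination exceeded low-dose zalfermin by 2.10 ± 0.50 (adjusted p = 0.00612) and low-dose semaglutide by 2.85 ± 0.52 (adjusted p = 0.000441). Against high-dose zalfermin and high-dose semaglutide the differences were 1.71 ± 0.50 and 1.61 ± 0.49 with adjusted p-values of 0.0994 and 0.0739. The low-dose interaction, taken as log2 levels of the combination and DIO-MASH vehicle minus those of both low doses, was 2.19 ± 0.72 for Cyp2a4, with an unadjusted p of 0.00348 and an adjusted p of 0.462. Within the 3 runs of sample numbers, the combination minus DIO-MASH vehicle difference was 3.14, 1.91 and 1.92 against 2.85 over all mice. The combination minus low-dose zalfermin difference was 3.53, 0.76 and 1.28 against 2.12, and so was largest in the first run. The combination minus low-dose semaglutide difference was 3.42, 1.76 and 2.02 against 2.65.

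Cyp2a5 ran from 270 through 1084 to 1597 CPM in chow-fed mice and from 122 through 377 to 622 CPM in DIO-MASH vehicle mice. It was higher in chow-fed mice by 1.42 ± 0.28 (adjusted p = 2.08e-05) and rose in high-dose zalfermin, at 478 to 1259 CPM, by 1.08 ± 0.27 (adjusted p = 0.00354). In the combination it was 0.69 ± 0.27 with an adjusted p of 0.0591, and 0.86 with an adjusted p of 0.0223 without DIO-MASH vehicle mouse 1. That mouse was the highest of its group, so the latter value is not read as a call. Cyp2a12 differed in chow-fed mice alone among the 6 groups compared with DIO-MASH vehicle (0.39 ± 0.14). Cyp2a22 was lower in chow-fed mice (-1.83 ± 0.41), at 0.692 to 7.26 CPM against 5.65 to 14.9 CPM.

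**Figure D4:**
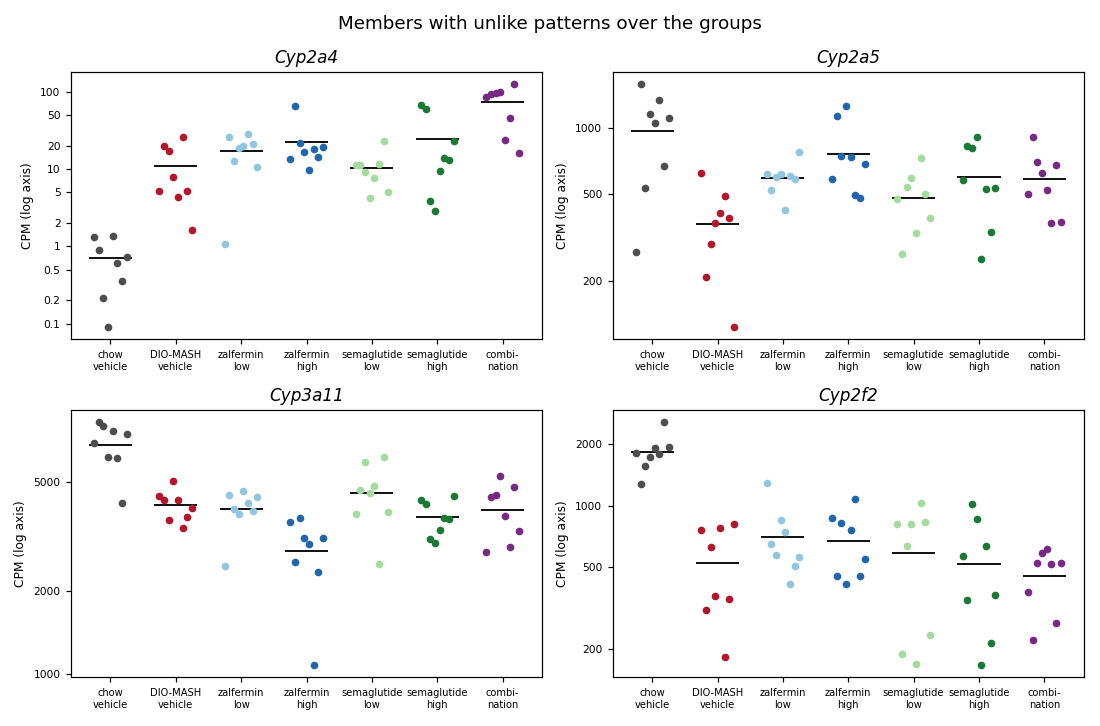
CPM on a log axis of Cyp2a4, Cyp2a5, Cyp3a11 and Cyp2f2 in each mouse (points) by group, with the group mean as a line (n = 8 per group). Chow-fed mice were lowest in Cyp2a4 (0.0901 to 1.35 CPM) and highest in Cyp2f2 (1275 to 2565 CPM), and high-dose zalfermin mice had 1073 to 3696 CPM of Cyp3a11.

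Cyp2a4 was 1 of 7 tested P450s listed as female-predominant in mouse liver. The list moved unevenly, and its counts stand beside 10% of all genes higher in the combination, 26.5% in chow-fed mice and 8.54% in high-dose zalfermin. In the combination 4 of the 7 rose, namely Cyp2a4, Cyp2c39 (0.73 ± 0.26), Cyp2c40 (2.97 ± 0.77) and Cyp2c69 (3.37 ± 0.82), while in chow-fed mice 4 were higher (Cyp2c40, Cyp2c69, Cyp2g1 and Cyp3a44) and Cyp2a4 was lower. High-dose zalfermin raised 2 (Cyp2c40 and Cyp2c69), and the other 3 treated groups none. Cyp2d9, a testosterone hydroxylase that is predominant in males, ran from 408 through 588 to 789 CPM in DIO-MASH vehicle mice, from 620 through 1362 to 1769 CPM in chow-fed mice (1.17 ± 0.19) and from 348 through 447 to 511 CPM in the combination, where the log2 fold change was -0.50 ± 0.19 with an adjusted p of 0.05455.

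Cyp2c40 and Cyp2c69 were low, from 0 to 1.18 and from 0 to 0.804 CPM in DIO-MASH vehicle mice, from 0.285 to 7.63 and from 0 to 6.33 CPM in the combination, and from 0.228 to 8.87 and 0.147 to 7.17 CPM in high-dose zalfermin. Their fold changes rest on few reads and on DIO-MASH vehicle mouse 1, the highest of its group, without which Cyp2c40 was 3.82 in the combination, 3.78 in high-dose zalfermin and 3.13 in chow-fed mice. In chow-fed mice Cyp2c69 was not called without mouse 8 (1.67, adjusted p = 0.105). The genes cannot be read as independent, since 27.7% of the 75-base windows of Cyp2c40 and 36.2% of those of Cyp2c69 were found in the other gene. In all, 45.89% of Cyp2c40 windows were shared with some other gene. Cyp2c40 also held 24.67% of the windows of Cyp2c67 and 23.21% of those of Cyp2c68. These stood at 80.2 and 34.9 CPM per kb in DIO-MASH vehicle mice, against 0.148 for Cyp2c40. Whether reads of Cyp2c40 came from such paralogs was not tested. The 75 coding bases in which Cyp2c40 and Cyp2c69 differ most, at 8 bases in capitals, are shown because they share windows. They run from coding position 1109 to 1183 in Cyp2c40 (chr19:39777967-39778041, minus strand) and from 1022 to 1096 in Cyp2c69 (chr19:39851082-39851156, minus strand).
Cyp2c40: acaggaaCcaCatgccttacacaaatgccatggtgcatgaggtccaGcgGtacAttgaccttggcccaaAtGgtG
Cyp2c69: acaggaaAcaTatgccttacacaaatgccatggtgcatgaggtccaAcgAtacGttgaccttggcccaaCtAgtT
In all, 10 of the 53 members shared more than 20% of their windows with another gene and 18 shared none, Cyp2c70, Cyp2c55, Cyp2f2, Cyp2r1, Cyp1b1 and Cyp2s1 among them.

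Of the Cyp2d members, 5 of 7 were higher and Cyp2d12 was lower (-1.51 ± 0.34) in chow-fed mice. Cyp2d26, the highest of the subfamily, ran from 677 through 809 to 877 CPM in DIO-MASH vehicle mice, from 1026 through 1372 to 1696 CPM in chow-fed mice (0.79 ± 0.11) and from 856 through 1236 to 1383 CPM in the combination (0.56 ± 0.11), and chow-fed and DIO-MASH mice did not overlap. Cyp2d22 showed little spread, at 167 to 195 CPM in DIO-MASH vehicle mice against 208 to 281 CPM in the combination and 208 to 274 CPM in high-dose zalfermin, both 0.41 ± 0.09. Cyp2d10 and Cyp2d40 also rose in both groups. In chow-fed mice Cyp2d40 was 0.30 ± 0.20 with an adjusted p of 0.188. Cyp2d12 fell in the combination as well (-1.17 ± 0.33), from 0.776 to 2.11 CPM to 0.231 to 0.87 CPM. Cyp2j5, an epoxygenase of arachidonic acid, ran from 356 to 524 CPM in DIO-MASH vehicle mice and rose by 0.41 ± 0.11 in the combination, at 474 to 696 CPM, and by 0.59 ± 0.11 in high-dose zalfermin, at 550 to 899 CPM, where no mouse overlapped DIO-MASH vehicle. Cyp2j9 rose in the combination (0.72 ± 0.21), and Cyp2j6 was called in none of the 6 comparisons with DIO-MASH vehicle (-0.21 to 0.10).

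Some members were far apart in the chow comparison with no call in any treated group. Cyp2f2, an enzyme of periportal hepatocytes known for activating naphthalene, overlaps the antisense gene Gm15883 (chr7:27119909-27133660). It ran from 182 through 496 to 813 CPM in DIO-MASH vehicle mice and from 1275 through 1807 to 2565 CPM in chow-fed mice, without overlap (1.80 ± 0.34, adjusted p = 1.19e-05). In the combination it was -0.20 ± 0.33 and in high-dose zalfermin 0.37 ± 0.33, with adjusted p-values of 0.691 and 0.486. Cyp2g1 was 2.80 ± 0.47 in chow-fed mice, at 0.692 to 6.02 against 0.0646 to 1.52 CPM, and 1.30 ± 0.48 in high-dose zalfermin with an adjusted p of 0.0537. Cyp2u1, a hydroxylase of long-chain fatty acids, was higher in chow-fed mice (0.93 ± 0.35, adjusted p = 0.0221; without chow mouse 4 it was 0.77 with an adjusted p of 0.07) and was -0.87 ± 0.37 in the combination (adjusted p = 0.0838).

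Cyp2r1, the vitamin D 25-hydroxylase, ran from 6.79 through 12.7 to 14.8 CPM in DIO-MASH vehicle mice and from 18.6 through 25.8 to 31.7 CPM in chow-fed mice, without overlap (1.09 ± 0.14, adjusted p = 5.62e-09). It rose in the combination, at 13.2 to 19.4 CPM, by 0.49 ± 0.14 (adjusted p = 0.00927), and was 0.24 ± 0.14 in high-dose zalfermin (adjusted p = 0.255).

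The listed P450s inducible through the aryl hydrocarbon receptor were Cyp1a1, Cyp1b1 and Cyp2s1, and they did not move together. Cyp1b1 (chr17:79701537-79715061), which is made largely outside hepatocytes and acts on estradiol and aromatic hydrocarbons, ran from 8.91 through 10.3 to 16.2 CPM in DIO-MASH vehicle mice and from 0.527 through 1.41 to 2.17 CPM in chow-fed mice, a log2 fold change of -3.06 ± 0.34 (adjusted p = 1.21e-10). In the combination it ran from 2.31 through 5.73 to 9.74 CPM and fell by -0.96 ± 0.29 (adjusted p = 0.0126), with 6 of 8 mice below the lowest DIO-MASH vehicle mouse. It was -0.62 ± 0.28 in high-dose semaglutide, -0.57 ± 0.28 in low-dose semaglutide, -0.46 ± 0.28 in high-dose zalfermin and -0.25 ± 0.28 in low-dose zalfermin, none of them called. Stellate cell markers fell in the same groups, with the summed levels given above; their part in this result was not tested. Cyp1a1, the classical target of the receptor, lay at 0.194 to 0.864 CPM in DIO-MASH vehicle mice and 0.452 to 5.29 CPM in chow-fed mice (1.95 ± 0.52, and 1.38 without chow mouse 8, adjusted p = 0.0153). Cyp2s1 lay at 0.336 to 3.04 CPM in DIO-MASH vehicle mice and at 0 to 0.652 CPM in 7 chow-fed mice, with 12.4 CPM in chow mouse 8. Its log2 fold change in chow-fed mice was 0.33 ± 0.58 (adjusted p = 0.65) with that mouse and -2.03 (adjusted p = 0.000483) without it.

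**Figure D5:**
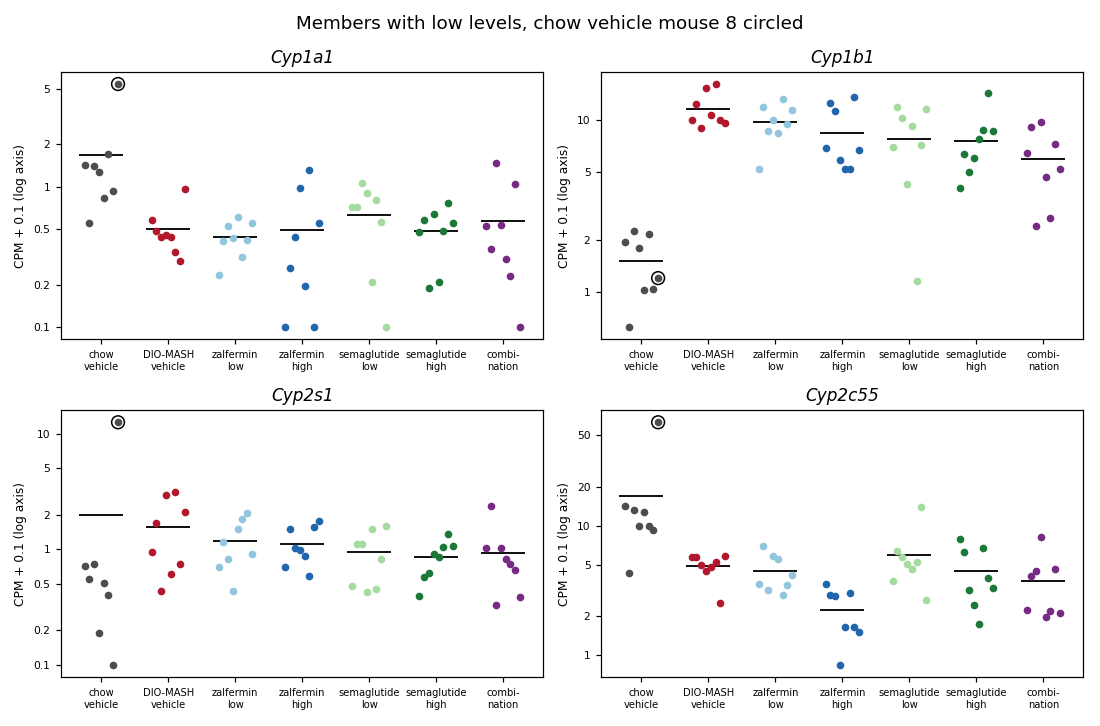
CPM + 0.1 on a log axis of Cyp1a1, Cyp1b1, Cyp2s1 and Cyp2c55 in each mouse (points) by group, with the group mean as a line and chow mouse 8 circled (n = 8 per group). The circled mouse was the highest of all 56 in Cyp1a1, Cyp2s1 and Cyp2c55 and lay within its group, at 0.527 to 2.17 CPM, in Cyp1b1.

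The combination was compared with each single agent to ask whether it moved these genes further. It exceeded low-dose zalfermin in 10 members and lay below it in 1 (Cyp2d12), where 3.27% of all genes were higher and 3.35% lower. It exceeded low-dose semaglutide in 9 and lay below it in none, where 1.93% were higher and 2.28% lower. Against high-dose zalfermin 2 members were higher and none lower, where 0.326% and 0.177% of all genes were, and against high-dose semaglutide 7 were higher and none lower, where 0.858% and 1.03% were. The 4 comparisons share the combination mice. The members higher than in both low-dose groups were Cyp2a4, Cyp2c37, Cyp2c40, Cyp2c68, Cyp2c70, Cyp3a13 and Cyp3a25. Cyp2c70 was higher in the combination than in low-dose zalfermin by 0.79 ± 0.22 and than in low-dose semaglutide by 1.11 ± 0.22 (adjusted p = 0.0184 and 0.00122). Cyp2c68 was higher by 0.99 ± 0.19 and 0.93 ± 0.19, with adjusted p-values of 0.00069 and 0.00187. Cyp2c38 was higher in the combination than in low-dose semaglutide, high-dose zalfermin and high-dose semaglutide, by 0.56 ± 0.16, 0.69 ± 0.16 and 0.64 ± 0.16; its difference from low-dose zalfermin was not called. The other member above high-dose zalfermin was Cyp3a59 (0.85 ± 0.21, adjusted p = 0.0406), a difference that was not called without any of 10 single mice. The counts against the low doses moved with single mice left out. For low-dose zalfermin they ran from 6 (without its mouse 2) to 13. For low-dose semaglutide they ran from 5 (without its mouse 8) to 15 (without its mouse 6). Calls over all genes are not given for these fits, so the moves are not read as particular to the members.

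By edgeR's quasi-likelihood test, 0 members showed a low-dose interaction, where 0.0142% of all genes did, and DESeq2 called 0. By edgeR 2 of 41 members, Cyp2a4 and Cyp2c23, and 952 of 14105 genes had an unadjusted p under 0.05. These 2 are therefore not read as a result about the members. High-dose zalfermin and high-dose semaglutide differed by edgeR in 0 members, where 0.447% of all genes differed, and DESeq2 called 0. By edgeR 14 of 41 members and 1361 of 14105 genes had an unadjusted p under 0.05. Among these 14 members Cyp2c54 was 0.96 ± 0.36 and Cyp2c55 -1.02 ± 0.40 (adjusted p = 0.274 and 0.297). High-dose and low-dose zalfermin differed by edgeR in 0 members, where 1.84% of all genes differed, and DESeq2 called 1. DESeq2's calls over all genes are not given here, so this 1 is not read as a result. By edgeR 15 of 41 members and 1906 of 14105 genes had an unadjusted p under 0.05. The doses of semaglutide differed by edgeR in 0 members, where 0% of all genes did, and DESeq2 called 0. By edgeR 1 of 41 members, Cyp2a4, and 549 of 14105 genes had an unadjusted p under 0.05, so this is not read as a result.

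The genes that supply and control these enzymes were read from 2 lists, transcriptional regulators and partners. Over all genes, 26.5% were higher in chow-fed mice, 10% in the combination, 8.54% in high-dose zalfermin and 1.43% in high-dose semaglutide. Of 17 regulators, chow-fed mice had 8 higher and 1 lower, 5 were higher in the combination, 6 higher and 1 lower in high-dose zalfermin, 3 higher in high-dose semaglutide, and none was called at the low doses. Hnf4a, a master factor of hepatocyte genes, ran from 349 to 547 CPM in DIO-MASH vehicle mice, from 907 to 1144 CPM in chow-fed mice and from 606 to 921 CPM in the combination, with log2 fold changes of 1.19 ± 0.14 and 0.80 ± 0.14 and no overlap with DIO-MASH vehicle in either. Nr1i3, which encodes the receptor CAR, ran from 30.9 to 77.8 CPM in DIO-MASH vehicle mice, from 84.1 to 139.6 CPM in chow-fed mice (1.07 ± 0.17) and from 72.8 to 105 CPM in the combination (0.68 ± 0.17), and rose by 0.62 ± 0.17 in high-dose zalfermin and 0.63 ± 0.17 in high-dose semaglutide. Nr1i2, which encodes PXR, was 0.12 ± 0.12 in chow-fed mice and 0.06 ± 0.12 in the combination, and Ahr, which encodes the aryl hydrocarbon receptor, 0.20 ± 0.18 and -0.11 ± 0.18, none of them called.

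Esr1, the estrogen receptor alpha gene, was higher in chow-fed mice by 0.94 ± 0.23. It rose by 0.72 ± 0.23 in the combination, 1.15 ± 0.23 in high-dose zalfermin and 0.84 ± 0.23 in high-dose semaglutide. Cux2, a repressor found mainly in female liver, ran from 0.323 through 0.379 to 1.06 CPM in DIO-MASH vehicle mice and from 0.414 through 1.69 to 9.76 CPM in the combination (2.87 ± 0.75). It rose in high-dose zalfermin by 2.25 ± 0.76, and its log2 fold change in chow-fed mice, 2.17 ± 0.76, rests on mouse 2 at 12.1 CPM, where the median was 0.48 CPM. Nr3c1, the glucocorticoid receptor gene, was higher by 0.25 ± 0.08 in chow-fed mice and 0.24 ± 0.08 in the combination. The other regulators called in chow-fed mice were Rxra (0.50 ± 0.10), Cebpa (0.47 ± 0.15), Onecut1 (1.42 ± 0.58, with a chow-fed median of 5.16 CPM below the DIO-MASH vehicle median of 7.3 CPM and mouse 6 at 99.8 CPM) and, lower, the oxidative stress factor Nfe2l2 (-0.66 ± 0.11).

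Of 10 partners, chow-fed mice had 7 higher and 1 lower, 2 were higher in the combination, 3 in high-dose zalfermin and 1 in high-dose semaglutide. With 10% of all genes higher in the combination, 2 of 10 is not read as a result about this list. Por, which encodes the oxidoreductase that feeds electrons to every microsomal P450, ran from 264 through 584 to 902 CPM in DIO-MASH vehicle mice, from 623 through 969 to 1552 CPM in chow-fed mice (0.82 ± 0.20) and from 764 through 1132 to 1431 CPM in high-dose zalfermin (0.92 ± 0.21), and rose in the combination (0.61 ± 0.20) and high-dose semaglutide (0.78 ± 0.20). Fech, ferrochelatase of heme synthesis, rose by 0.63 ± 0.08 in chow-fed mice and 0.38 ± 0.08 in the combination and in high-dose zalfermin. Fdx1, an electron carrier of mitochondria, was higher in chow-fed mice (0.60 ± 0.11) and high-dose zalfermin (0.42 ± 0.11). Pgrmc1, Cyb5a, Cyb5b and the heme synthesis gene Alas1 were higher in chow-fed mice (0.52 ± 0.09, 0.34 ± 0.10, 0.26 ± 0.11 and 0.75 ± 0.32), and Hmox1, heme oxygenase, was lower (-0.59 ± 0.22). None of these 5 was called in the combination, where Pgrmc1 was -0.01 ± 0.09 and Alas1 -0.40 ± 0.32.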

How the data were processed

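Liver RNA of 56 mice was sequenced (TruSeq stranded mRNA libraries, NextSeq 500). The authors deposited 1 table of raw read counts per gene. The study's methods name STAR and GRCm38, and the submitters' processing notes name Trim Galore 0.6.4, Salmon 1.9.0 and build GRCm38. How reads were counted, and whether strand was used, is not given in the sources used here, so reads of near-identical paralogs and of overlapping antisense genes may be shared. Groups came from the sample labels. Nothing in the labels gives a mouse's cage or extraction day.

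Counts as deposited were fitted with edgeR 4.0.16 in R 4.3.3 (TMM, glmQLFit and glmQLFTest, two-sided, no covariate, one fit of 7 groups with 8 mice each) over genes that reached 5 reads in at least 3 mice. P-values were adjusted by the Benjamini-Hochberg method over 14105 genes, with a threshold of 0.05. SE was the absolute log2 fold change divided by the square root of F. On simulated data, 200 of 13980 genes were changed 2-fold, all with a mean above 1 CPM in DIO-MASH vehicle mice. In a combination against vehicle comparison of 8 against 8 mice, 83% of these were recovered and 3.488% of calls were false. This recovery does not cover genes under 1 CPM. The libraries held 5228187 to 20885786 reads, and no pair of libraries of the same group agreed within sampling noise. Pairs across groups were not compared. Shared 75-base windows were counted over annotated transcripts (GENCODE vM21). Figures were drawn with matplotlib 3.10.9.

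Alternatives were the DESeq2 1.42.0 Wald test, DESeq2 size factors, no filter, a stricter filter (10 reads in at least 8 mice), the runs of sample numbers as a covariate, only the groups compared, leaving out low-dose semaglutide mouse 6, and leaving out each mouse. The fit without chow mouse 8 as a result of its own and the intestinal list were chosen after seeing the data. Values without DIO-MASH vehicle mouse 1 were likewise singled out after its levels were seen. Members and lists were chosen with earlier results of these data known. Genes were named by a rule: members with the largest changes among those called whose mean level reached 1 CPM (up to 5 in each direction against DIO-MASH vehicle, up to 3 in the other comparisons), the most abundant member of each subfamily, Cyp1a1, Cyp1b1, Cyp2a4, Cyp2a5, Cyp2c70, Cyp2f2, Cyp2r1 and Cyp3a11, and the regulators and partners past the threshold in chow-fed mice or the combination. Members outside the rule are given to describe their subfamily or list, and were chosen after their values were seen.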

Additional observations from a re-analysis of the deposited data

Results flagged for a closer look

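In the 22 named P450 genes, 27 of 154 groups of 8 mice held a highest or lowest mouse whose gap to the next exceeded the critical share of the group's range (Dixon's test at the 95% level). About 1 in 20 groups would be flagged if values were independent and normally distributed. Levels here were CPM without logs, and the genes were measured in the same mice, so the 27 flags cannot be set against that rate. Several fell on the same mice. Chow mouse 8 was the highest of its group in Cyp2c55 (63.0 CPM), Cyp1a1 (5.29 CPM) and Cyp2s1 (12.4 CPM), and it also held 948 reads of Cyp2c65 and 465 reads of Cyp2c66, members outside the tests. DIO-MASH vehicle mouse 1 was the highest in Cyp2c54 (88.9 CPM) and Cyp2c37 (227 CPM). Low-dose semaglutide mouse 6 was the highest in Cyp2c40 (1.88 CPM), Cyp2c70 (591 CPM), Cyp2c68 (166 CPM) and Cyp2u1 (27.2 CPM).

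Low-dose zalfermin mouse 1 was the highest in Cyp2c54 (217 CPM) and Cyp2c40 (2.17 CPM) and the lowest in Cyp3a11 (2470 CPM). Combination mouse 4 was the highest in Cyp2a22 (43.8 CPM), Cyp2c55 (8.06 CPM) and Cyp2c38 (219 CPM), combination mouse 3 in Cyp2c37 (935 CPM) and combination mouse 2 in Cyp2s1 (2.28 CPM). High-dose zalfermin mouse 2 was the highest in Cyp2a4 (66.6 CPM) and Cyp3a59 (28.9 CPM), mouse 1 in Cyp2c70 (845 CPM) and mouse 6 in Cyp2u1 (35.7 CPM). Low-dose semaglutide mouse 7 was the highest in Cyp2a4 (23.1 CPM) and Cyp2c55 (13.9 CPM), high-dose semaglutide mouse 7 in Cyp1b1 (14.3 CPM), chow mouse 2 in Cyp3a59 (106 CPM) and DIO-MASH vehicle mouse 8 in Cyp1a1 (0.864 CPM). DIO-MASH vehicle mouse 7 was the lowest in Cyp2c55 (2.46 CPM).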

How the results depend on the processing

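Counts of members called against DIO-MASH vehicle stayed within 1.5 times for chow-fed mice, the combination and high-dose zalfermin under every alternative run, with 34 to 35, 23 to 25 and 19 to 22 called when each mouse was left out. Low-dose zalfermin moved from 2 to 9 with DESeq2, 8 with the runs as a covariate, 4 with only the groups compared and 6 without low-dose semaglutide mouse 6, and from 0 (without DIO-MASH vehicle mouse 2) to 6 with single mice left out. Low-dose semaglutide moved from 0 to 4 with DESeq2, and from 0 to 2 (without DIO-MASH vehicle mouse 1). High-dose semaglutide moved from 5 to 3 with only the groups compared, and from 1 (without its mouse 3) to 11 (without its mouse 7). The combination against low-dose zalfermin ranged from 6 (without low-dose zalfermin mouse 2) to 13, and against low-dose semaglutide from 5 (without its mouse 8) to 15 (without its mouse 6). Against high-dose zalfermin it moved from 2 to 1 with no filter and 0 with only the groups compared, and from 0 (without high-dose zalfermin mouse 1) to 3. Against high-dose semaglutide it moved from 7 to 3 with only the groups compared, and from 1 (without combination mouse 4) to 9. High-dose against low-dose zalfermin moved from 0 to 1 with DESeq2, 2 with the covariate, 5 with only the groups compared and 1 without low-dose semaglutide mouse 6, and up to 5 (without low-dose zalfermin mouse 1). The causes were not tested. These counts are of members alone, without the calls over all genes in the same fits beside them. A moved count is therefore not read as particular to the members. Cyp2s1 in chow-fed mice ranged from -2.03 (without chow mouse 8) to 0.58. No fit with a block of mice was made, since the labels share no replicate number between groups and do not say what the sample numbers stand for. Genes under 1 CPM rest on few reads.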
